A study of Caenorhabditis elegans with 5 samples.

Results

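The proteasome is the protease complex that degrades proteins tagged with ubiquitin in the cytosol and nucleus of eukaryotic cells. Its 20S core is a barrel of stacked rings, with outer alpha rings that gate the entrance and inner beta rings that hold the protease sites. The 19S regulatory particle caps the core. Its base carries a ring of ATPases that unfold substrates, and its lid removes ubiquitin chains before degradation. In *C. elegans* the alpha subunits are encoded by *pas* genes, the beta subunits by *pbs* genes, the ATPases by *rpt* genes and the other 19S subunits by *rpn* genes. When proteasome activity falls, worms can raise expression of these genes through SKN-1A, a form of the transcription factor SKN-1. The genes described here are those whose symbol starts with *pas-*, *pbs-*, *rpt-* or *rpn-*. There are 33 of them among 25393 listed genes, 14 for the 20S core and 19 for the 19S particle. All 33 reached the level tested.

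RNA was taken from whole wild-type N2 animals collected together by stage, labelled as L4. They had been synchronized by arrest at the L1 stage and were grown on *E. coli* HT115 after maintenance on OP50. The control group of 2 libraries received 400 µM citrate, and the other group of 3 libraries received 400 µM tamoxifen, each for 48 h by the labels. The paper states that tamoxifen slowed development. Treated animals were collected later than controls, by the paper to avoid expression changes that come from unequal rates of development. Treatment and collection time therefore cannot be told apart in these libraries. In Cel-seq2 the tags come from the 3′ ends of polyadenylated RNA. Levels are given in CPM, a gene's tags scaled to 1000000 per library, and changes are differences of log2(CPM + 1) between the groups, tested by limma over 8325 genes with Benjamini-Hochberg adjustment. Each log2 fold change is followed by ± its standard error from that fit, and each adjusted p comes from it. A change on this scale understates that of genes with few tags. The question is whether tamoxifen libraries differ from citrate libraries in the expression of proteasome genes.

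Totals ran from 1782371 to 38276144 tags per library, and a value from the smallest library is the least precise. The subunit genes other than *rpn-6.2* had at least 167 tags even there. Markers of intestine, muscle, pharynx, neurons, germline and oocytes were detected in each library, as a whole animal should give. Of the hypodermal markers, *dpy-7*, *rol-6* and *bli-1*, which encode cuticle collagens, were at 3.93 CPM or less everywhere. The adult collagen gene *col-19* lay between 671 and 999 CPM. This level of an adult gene differs from the label of L4, and the stage of the animals was not tested. Over all tested genes the median change was 0.24 on the log2 scale as deposited and 0.07 after median-of-ratios scaling, so the medians of gene groups are also given relative to it. In pools of whole animals, more cells of a type and more RNA per cell cannot be told apart.

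Some genes of the 19S particle were higher in tamoxifen libraries, while no gene of the 20S core passed the test. At an adjusted p under 0.05 from limma, 9 of the 33 subunit genes were called higher, against 20.4% of all tested genes. All 9 encode 19S subunits. None of the 33 was called lower, against a background of 9.67%. At an unadjusted p under 0.05, 0 of them had a negative change, beside 1238 of all 8325 tested genes. Of the 14 core genes 0 were called by limma, edgeR or DESeq2, and 1, *pbs-3*, had an unadjusted p under 0.05 in limma. Among all 8325 tested genes 3707 had such a p in limma. That count over all tested genes was not taken for the other fits. Under a stricter rule (a change over 2-fold at an adjusted p under 0.01) 1 subunit gene, *rpn-3*, was called higher and 0 lower, where 4.66% of all tested genes were higher and 2.76% lower. Median changes on the log2 scale were 0.73 over the 19 genes of the 19S particle and 0.33 over the 14 core genes, which is 0.48 and 0.09 above the median of all tested genes. After median-of-ratios scaling these distances were 0.48 and 0.09. The gap between the medians of the 19S and 20S genes was not tested.

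**Figure D1:**
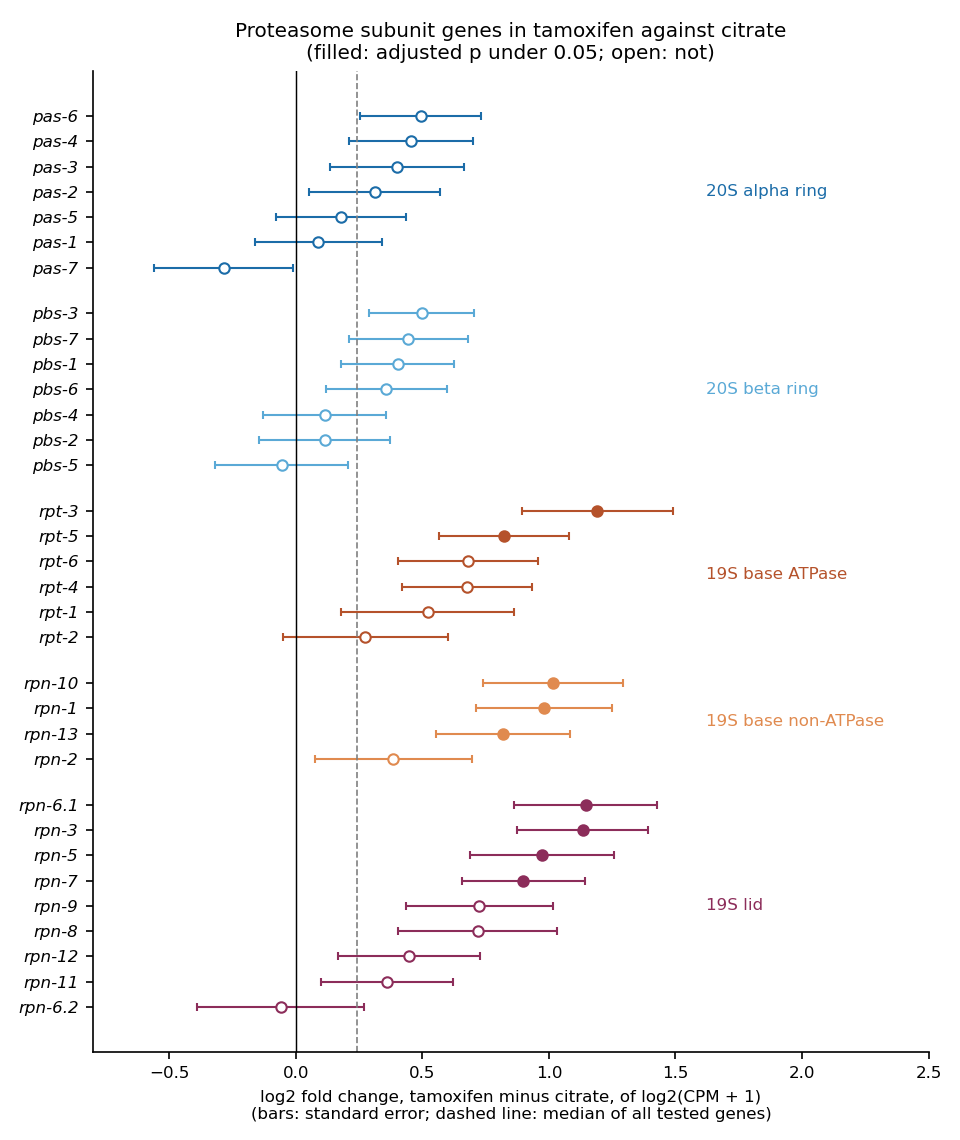
Log2 fold change of each of the 33 subunit genes (x axis, tamoxifen minus citrate, of log2(CPM + 1), with standard error), grouped by place in the complex. Filled points are the 9 genes at an adjusted p under 0.05, all in the 3 groups of the 19S particle. The 20S genes lie between -0.28 and 0.50 and the 19S genes between -0.06 and 1.19, and *pas-1*, *pas-5*, *pbs-2* and *pbs-4* fall below 0 after median-of-ratios scaling.

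The citrate libraries differed from each other in the same genes, which bounds these calls. Citrate replicate 2 was above citrate replicate 1 in 18 of the 19 genes of the 19S particle, by a median of 0.69 on the log2 scale, and in 8 of the 14 core genes, by a median of 0.05. Over all tested genes that median was 0.13. Without citrate replicate 1, where the lone control is assumed to vary like the tamoxifen libraries, 0 subunit genes passed in limma, 5 had an unadjusted p under 0.05, and 53 of all 8325 genes were called higher. The median log2 fold change of the 19S genes against citrate replicate 2 alone was 0.53, and against citrate replicate 1 alone 1.05. These are 0.34 and 0.76 above the medians of all tested genes in the same fits. On other scales or tests fewer passed. After median-of-ratios scaling 5 of the 33 were called higher, against 12.6% of all tested genes. On the recovered tags edgeR called 3, against 11.6%, and DESeq2 4, against 13%, so that these counts were near the background. Without the filter on low values 0 subunit genes passed in limma, with 12 at an unadjusted p under 0.05, and 1 of all 20671 genes was called higher.

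**Figure D2:**
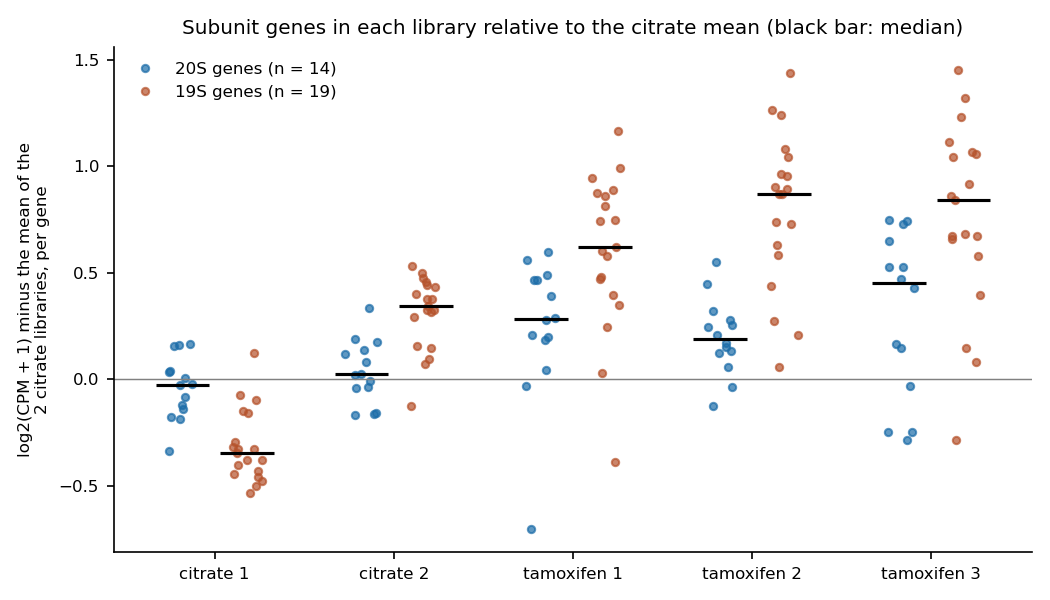
Each point is 1 subunit gene in 1 library, as log2(CPM + 1) minus its mean over the 2 citrate libraries (y axis), with 20S genes in blue, 19S genes in orange and black bars at medians. The 19S median is -0.34 and 0.34 in the citrate libraries and between 0.62 and 0.87 in tamoxifen, and the 20S median is -0.02 and 0.02 in citrate and between 0.19 and 0.45 in tamoxifen.

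Summed over all 33 genes, the subunits took 8999 and 11783 CPM in citrate and 14444, 15795 and 16186 in tamoxifen replicates 1, 2 and 3. The tamoxifen sums were all above the citrate sums. For the 19S particle alone the sums were 3382 and 5735 CPM in citrate against 7275, 8905 and 8375 in tamoxifen, a ratio of means of 1.80. The core sums were 5618 and 6048 CPM in citrate and 7170, 6890 and 7811 in tamoxifen, a ratio of means of 1.25. The sum over 19S genes divided by that over 20S genes needs no scaling between libraries. It was 0.602 and 0.948 in citrate and 1.01, 1.29 and 1.07 in tamoxifen. Each tamoxifen ratio exceeded both citrate ratios, and the step from citrate replicate 2 to tamoxifen replicate 1 was smaller than that between the citrate replicates.

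**Figure D3:**
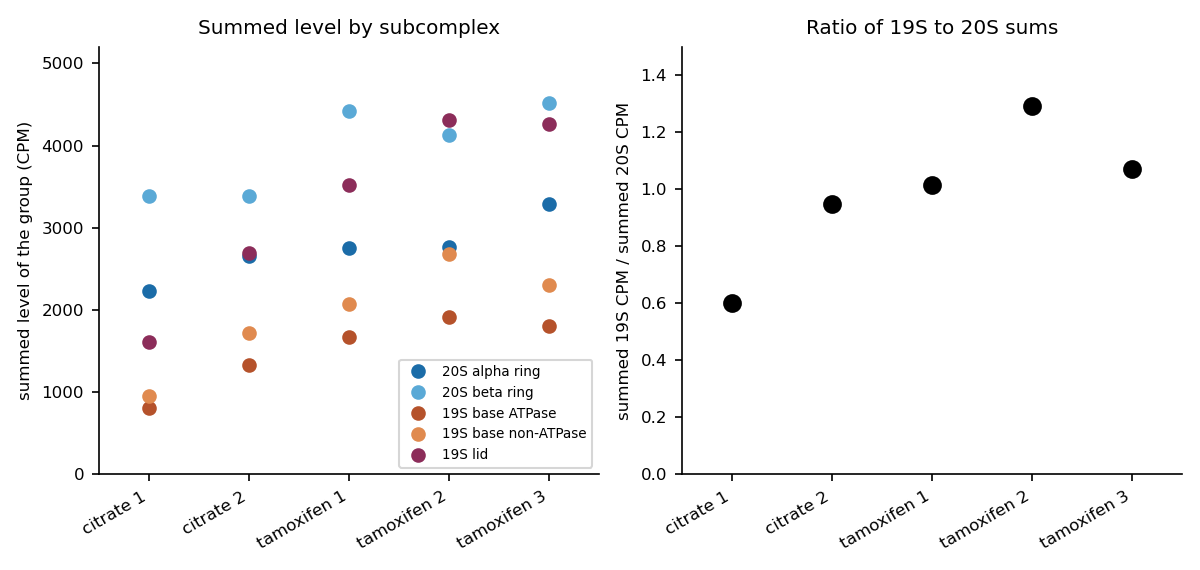
Left, summed CPM of each of the 5 groups of subunit genes in each library (y axis); right, the summed 19S CPM divided by the summed 20S CPM. Each point is 1 library, and the ratio runs from 0.602 in citrate replicate 1 to 1.29 in tamoxifen replicate 2.

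The alpha ring is assembled from *pas-1* to *pas-7*, and 0 of these 7 genes passed the test in limma, edgeR or DESeq2. In limma 3707 of all 8325 tested genes had an unadjusted p under 0.05, and 0 of these 7 did. Their median log2 fold change was 0.31, which is 0.07 above that of all tested genes, and in 3 of the 7 every tamoxifen library was above both controls, beside 39.4% of all tested genes. The largest change in the ring was that of *pas-6* (V, 5583161 to 5584343, in the WBcel235 build with its Ensembl annotation, as for all positions here). It had 419 and 544 CPM in citrate and 583, 653 and 801 in tamoxifen replicates 1, 2 and 3. The groups did not overlap, and the log2 fold change was 0.49 ± 0.24 (adjusted p = 0.123). At the other end, *pas-7* had 357 and 422 CPM in citrate and 238, 427 and 319 in tamoxifen, with a log2 fold change of -0.28 ± 0.27 (adjusted p = 0.436). Its tamoxifen values fell on both sides of the citrate values. This gene overlaps *lact-2* on the opposite strand, and whether the authors' counting used strand is not given in the sources used here. The remaining members, *pas-1* to *pas-5*, had log2 fold changes from 0.09 to 0.46 as deposited, and those of *pas-1* and *pas-5* were below 0 after median-of-ratios scaling.

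The beta ring holds the proteolytic sites of the complex. The subunit with chymotrypsin-like activity is encoded by *pbs-5* (I, 14719167 to 14720477). It had 183 and 222 CPM in citrate and 233, 185 and 169 in tamoxifen, so that the groups overlapped, with a log2 fold change of -0.05 ± 0.26 (adjusted p = 0.887). The trypsin-like site is that of *pbs-2* (I, 12967216 to 12968280), which had 486 and 386 CPM in citrate and 600, 472 and 365 in tamoxifen. The tamoxifen values reached past the citrate values at both ends, and the log2 fold change was 0.11 ± 0.26 (adjusted p = 0.757), below 0 after median-of-ratios scaling. The caspase-like site is that of *pbs-1* (IV, 1708814 to 1709745), with 664 and 849 CPM in citrate and 853, 1102 and 1042 in tamoxifen. Its lowest tamoxifen value was just above its highest citrate value, and the log2 fold change was 0.40 ± 0.22 (adjusted p = 0.175). None of the genes for these catalytic subunits passed the test, and the interval of each change includes 0 within 2 standard errors.

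The largest change among the beta genes was that of *pbs-3* (II, 4954480 to 4955427), which encodes a subunit without a protease site. It had 1082 and 1024 CPM in citrate and 1594, 1247 and 1652 in tamoxifen. The groups did not overlap, the citrate values were close together, and the log2 fold change was 0.50 ± 0.21 (adjusted p = 0.0811). *pbs-3* overlaps *ndx-3* on the opposite strand. It passed without tamoxifen replicate 2 (adjusted p = 0.0456). The ring's other members, *pbs-4*, *pbs-6* and *pbs-7*, had log2 fold changes of 0.11, 0.36 and 0.44. Of these *pbs-7* was steady in the controls, at 430 and 425 CPM, and stood at 519, 535 and 710 in tamoxifen. It overlaps *K07A12.5* on the same strand, so that tags of the pair may not be separable. The summed level of the 7 beta genes was 3383 and 3388 CPM in citrate, nearly equal, and 4420, 4129 and 4520 in tamoxifen.

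In the ATPase ring of the 19S base, 2 of the 6 *rpt* genes rose, beside 20.4% of all tested genes, and the 6 log2 fold changes ran from 0.28 to 1.19. These subunits thread the substrate into the core. For *rpt-3* (III, 6489793 to 6491282) the citrate libraries had 150 and 302 CPM and the tamoxifen libraries 479, 415 and 586. The lowest tamoxifen value was above the higher of the citrate values. The ratio of means was 2.18, and the log2 fold change was 1.19 ± 0.30 (adjusted p = 0.013), the largest of the 33 subunit genes. Against citrate replicate 2 alone it was 0.69 (adjusted p = 0.176). The other, *rpt-5* (I, 5741868 to 5743571), had 261 and 405 CPM in citrate and 546, 672 and 522 in tamoxifen, again without overlap. Its log2 fold change was 0.82 ± 0.26 (adjusted p = 0.029), and it did not pass after median-of-ratios scaling (adjusted p = 0.092).

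Among the ATPase genes that did not pass, *rpt-4* and *rpt-6* had tamoxifen values wholly above citrate. *rpt-4* had 118 and 135 CPM in citrate and 192, 190 and 227 in tamoxifen (log2 fold change 0.68 ± 0.26, adjusted p = 0.0582). The spread of *rpt-4* within each group was small beside the gap between groups. In contrast, *rpt-2* had the lowest change of the ring, with 114 and 193 CPM in citrate and 208, 230 and 122 in tamoxifen (log2 fold change 0.28 ± 0.33, adjusted p = 0.533). Its values overlapped between groups, as did those of *rpt-1*, at 98.2 and 207 CPM in citrate and 145, 262 and 226 in tamoxifen. Against citrate replicate 2 alone the log2 fold changes of *rpt-1* and *rpt-2* were -0.01 and -0.10. *rpt-2*, *rpt-4* and *rpt-6* each overlap a coding gene on the opposite strand.

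The rest of the base consists of the scaffold subunits *rpn-1* and *rpn-2* and the ubiquitin receptors *rpn-10* and *rpn-13*. Of these 4 genes 3 rose, beside 20.4% of all tested genes. *rpn-10* (I, 10730712 to 10732424) is known in worms for its part in the switch from sperm to oocyte production. It had 108 and 174 CPM in citrate and 265, 252 and 323 in tamoxifen. The groups were well apart, the ratio of means was 1.98, and the log2 fold change was 1.02 ± 0.28 (adjusted p = 0.0179). *rpn-10* overlaps *B0205.12* on the opposite strand. *rpn-1* (IV, 6906420 to 6909913), which docks shuttle proteins and a deubiquitinase, had 394 and 727 CPM in citrate and 943, 1287 and 973 in tamoxifen. No value overlapped, although the citrate libraries were far apart, and the log2 fold change was 0.98 ± 0.27 (adjusted p = 0.018). The second receptor, *rpn-13* (III, 6340113 to 6341928), had 327 and 571 CPM in citrate and 645, 843 and 817 in tamoxifen, with no overlap. Its log2 fold change was 0.82 ± 0.26 (adjusted p = 0.0334). This was the least stable of the 9 calls, lost in 11 of the 17 alternative fits. The scaffold *rpn-2* had 129 and 244 CPM in citrate and 226, 294 and 187 in tamoxifen (log2 fold change 0.39 ± 0.31, adjusted p = 0.348). Its citrate replicate 2 lay inside the range of the tamoxifen values.

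In the lid, 4 of 9 genes rose, beside 20.4% of all tested genes. These were *rpn-3*, *rpn-5*, *rpn-6.1* and *rpn-7*, each of which encodes a structural subunit. *rpn-3* (III, 8447353 to 8449346) had 281 and 475 CPM in citrate and 729, 776 and 915 in tamoxifen. All tamoxifen values were well above both citrate values, and the ratio of means was 2.13. Its log2 fold change was 1.13 ± 0.26 (adjusted p = 0.00928), the lowest adjusted p among the subunit genes. Its adjusted p was 0.01 or more in 12 of the 17 alternative fits. *rpn-6.1* (III, 6959110 to 6962001), whose raised expression is known to increase proteasome activity and stress resistance in worms, had 318 and 619 CPM in citrate. In tamoxifen it had 822, 1204 and 961, all above the controls, with a log2 fold change of 1.15 ± 0.28 (adjusted p = 0.0122). *rpn-5* (II, 4696418 to 4698427) had 261 and 477 CPM in citrate and 544, 835 and 736 in tamoxifen, so that tamoxifen replicate 1 was near citrate replicate 2. Its log2 fold change was 0.97 ± 0.28 (adjusted p = 0.0232). *rpn-7* (IV, 9316631 to 9318632) had 402 and 632 CPM in citrate and 849, 943 and 1040 in tamoxifen, without overlap, and its log2 fold change was 0.90 ± 0.24 (adjusted p = 0.0168). It overlaps *nemt-1* on the opposite strand.

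The lid also has a paralog of *rpn-6.1*. This gene, *rpn-6.2* (III, 8999817 to 9001999), was at 15.5 and 12.8 CPM in citrate and 10.5, 14.7 and 15.7 in tamoxifen, with only 28 tags in tamoxifen replicate 3. The groups overlapped fully, with a log2 fold change of -0.06 ± 0.33 (adjusted p = 0.902), and the difference in change between the paralogs was not tested. How far tags of the pair can be told apart was not tested. Of the remaining lid genes, *rpn-11*, which encodes the deubiquitinase of the lid, had 173 and 260 CPM in citrate and 252, 288 and 279 in tamoxifen (log2 fold change 0.36 ± 0.26, adjusted p = 0.296). Citrate replicate 2 reached into the tamoxifen range. *rpn-8*, *rpn-9* and *rpn-12* had log2 fold changes of 0.72, 0.73 and 0.45, with all tamoxifen values above citrate and limma adjusted p from 0.0708 to 0.229.

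**Figure D4:**
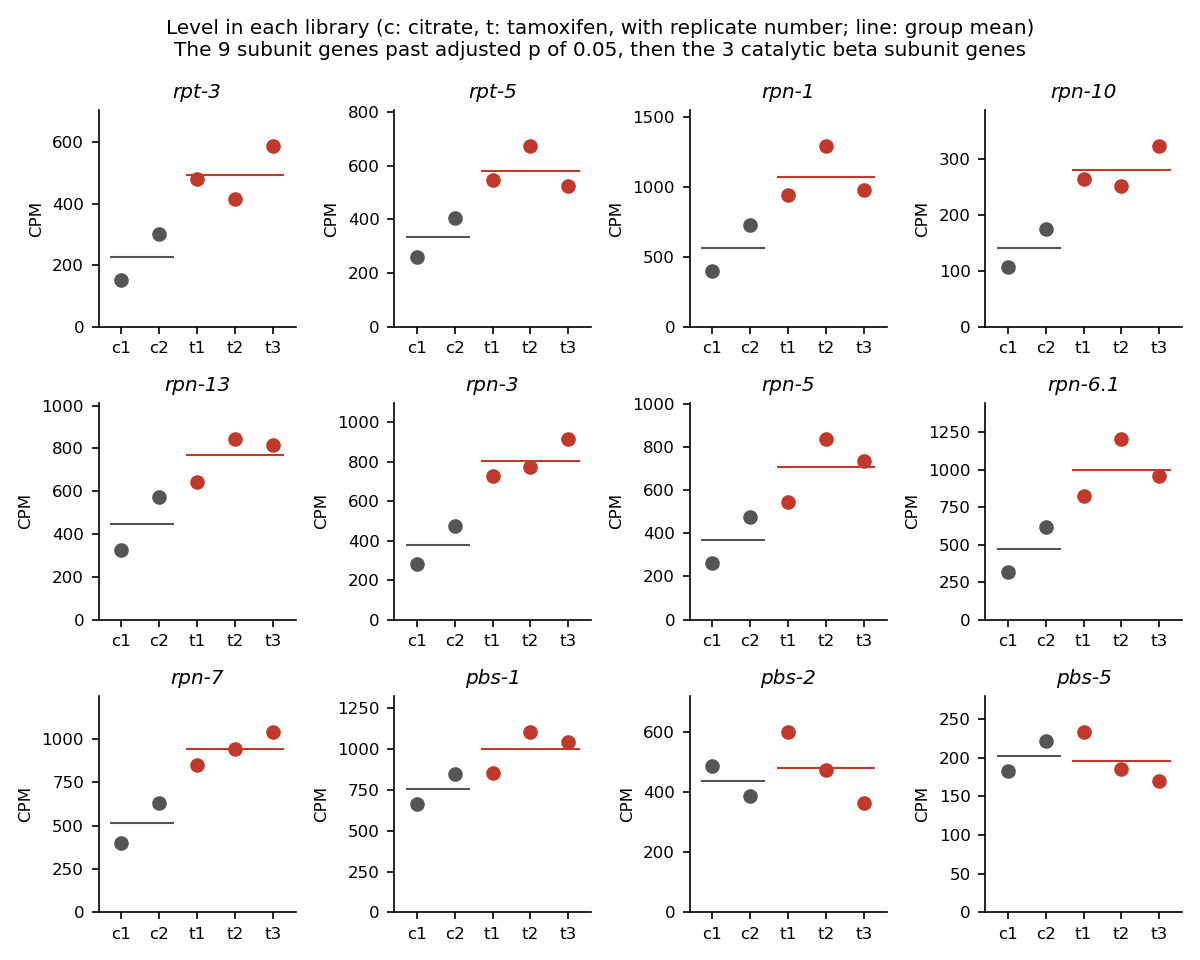
CPM (y axis, from 0) of the 9 subunit genes at an adjusted p under 0.05 and of the 3 genes of the catalytic beta subunits in each library, with citrate in grey, tamoxifen in red and lines at group means. In the first 9 panels, picked by their calls, each tamoxifen value exceeds both citrate values, as in 39.4% of all tested genes. Citrate replicate 2 exceeds citrate replicate 1 in these 9, and *pbs-2* and *pbs-5* overlap between groups.

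In 21 of the 33 genes every tamoxifen library was above both controls, against 39.4% of all tested genes, and in 0 were they all below, against 20.8%. By subcomplex these were 14 of the 19 genes of the 19S particle and 7 of the 14 core genes. Changes were positive in 30 of the 33, against 60.1% of all tested genes. They were positive in 18 of 19 genes of the 19S particle under each of the scalings tried, and in 12 of 14 core genes as deposited but 8 of 14 after median-of-ratios scaling. The genes are spread over the genome, with 10 on chromosome I, 7 on II, 8 on III, 3 on IV, 5 on V and 0 on X. Another coding gene overlaps 10 of the 33, and 2 of the 9 called genes.

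The wider ubiquitin pathway was described with lists of 64 genes, of which 62 were matched to the table and 50 reached the level tested. In these lists 17 genes were called higher and 0 lower at an adjusted p under 0.05 in limma. At an unadjusted p under 0.05 in limma 3 were lower, beside 1238 of all 8325 tested genes. On the recovered tags edgeR and DESeq2 each called 9 higher and 3 lower, TMM scaling gave 10 higher, and without the filter 0 passed. Over all 8325 tested genes edgeR called 11.6% higher and DESeq2 13%, with 1265 and 1367 genes lower, and TMM scaling gave 1234 higher. The median log2 fold change of the 50 was 0.63, which is 0.39 above that of all tested genes. In limma the background is the same as for the subunit genes, 20.4% of all tested genes higher and 9.67% lower. At the stricter rule 5 rose, *skn-1*, *sel-11*, *npl-4.1*, *ubq-1* and *uba-1*, where 4.66% of all tested genes were higher. After TMM or median-of-ratios scaling *ubq-1* alone of these kept the strict call, and the adjusted p of the others ran from 0.0117 to 0.0233. Without citrate replicate 1, 0 of the 50 passed in limma in either direction and 13 had an unadjusted p under 0.05, all higher.

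Among genes that control proteasome gene expression, 3 of the 5 tested rose, beside 20.4% of all tested genes. *skn-1* (IV, 5651039 to 5660384) had 94.2 and 170 CPM in citrate and 279, 336 and 301 in tamoxifen. The groups were well separated, with a log2 fold change of 1.26 ± 0.29 (adjusted p = 0.00934). Tags near the 3′ end do not separate the forms of SKN-1, and the gene overlaps *csn-5* and *clec-178* on the opposite strand. *sel-11* encodes a ubiquitin ligase of the endoplasmic reticulum, from which SKN-1A is released, and had 36.8 and 51.1 CPM in citrate and 137, 121 and 107 in tamoxifen. Its tamoxifen values were each more than the sum of both citrate values, with a log2 fold change of 1.46 ± 0.29 (adjusted p = 0.00541). *wdr-23*, which encodes a repressor of SKN-1, had 11.9 and 19.2 CPM in citrate and 35.6, 40.3 and 40.4 in tamoxifen. Its tamoxifen libraries agreed closely, with a log2 fold change of 1.30 ± 0.31 (adjusted p = 0.0113). The protease gene *ddi-1*, whose product cuts and activates SKN-1A, had 13.5 and 22.9 CPM in citrate and 31.6, 24.4 and 35.3 in tamoxifen, and its change of 0.74 on the log2 scale did not pass (adjusted p = 0.0977). *png-1*, whose product edits the glycosylated protein, was below the level tested, at 2.97 and 2.16 CPM in citrate and 3.99, 5.20 and 3.37 in tamoxifen. The remaining gene of this list, *sel-1*, had 138 and 141 CPM in citrate and 95.4, 193 and 109 in tamoxifen. Its groups overlapped, with a log2 fold change of -0.14 ± 0.31 (adjusted p = 0.753).

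Ubiquitin itself is encoded by *ubq-1*, a polyubiquitin gene, and *ubq-2*, in which ubiquitin is fused to a ribosomal protein. *ubq-1* (III, 5940254 to 5943841) had 214 and 324 CPM in citrate and 639, 607 and 911 in tamoxifen. Each tamoxifen value was above both controls, and the log2 fold change was 1.42 ± 0.27 (adjusted p = 0.00471). *ubq-2* had 2646 and 2461 CPM in citrate and 2179, 1348 and 1667 in tamoxifen, all below the controls, with a log2 fold change of -0.59 ± 0.22 (adjusted p = 0.0548). The ubiquitin-activating enzyme gene *uba-1* had 305 and 474 CPM in citrate and 837, 859 and 743 in tamoxifen (log2 fold change 1.09 ± 0.24, adjusted p = 0.00865). Both *ubq-1* and *uba-1* overlap a coding gene on the opposite strand. Of 13 tested *ubc* genes for conjugating enzymes 1 rose, *ubc-25*, beside 20.4% of all tested genes. Its level went from 60.3 and 106 CPM in citrate to 213, 189 and 159 in tamoxifen.

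The CDC-48 ATPase complex extracts ubiquitin-tagged proteins and passes them to the proteasome. Of its 5 genes 4 rose, beside 20.4% of all tested genes. *npl-4.1* had 14.99 and 19.5 CPM in citrate and 43.8, 38.8 and 66.8 in tamoxifen, with no overlap (log2 fold change 1.45 ± 0.32, adjusted p = 0.00889). Its paralog *npl-4.2* had 16.5 and 16.5 CPM in citrate and 31.6, 37.2 and 47.1 in tamoxifen, and the authors' counting could have split tags between these copies. Both copies were higher in each tamoxifen library than in the controls. *cdc-48.2* had 44.2 and 58.3 CPM in citrate and 99.1, 94.2 and 99.3 in tamoxifen (log2 fold change 0.93), and the cofactor gene *ufd-1* had 29.9 and 34.6 against 62.9, 44.8 and 88.6 (0.95). The paralog *cdc-48.1* did not pass, with a log2 fold change of 0.79 (adjusted p = 0.0550). Of 9 tested proteasome-associated factors 2 rose, near the 20.4% of all tested genes. These were *usp-14*, a deubiquitinase on the 19S base, with 126 and 252 CPM in citrate and 282, 447 and 297 in tamoxifen, and the shuttle gene *rad-23*, with 166 and 309 against 381, 490 and 387. The small lid subunit gene *dss-1*, which does not carry an *rpn* name, had 304 and 284 CPM in citrate and 233, 100.5 and 203 in tamoxifen. Its tamoxifen values were all below citrate, with a log2 fold change of -0.80 ± 0.33 (adjusted p = 0.0768). Of 13 tested genes for cullins, their partners and the COP9 signalosome, a complex related to the lid, 5 rose, beside the same 20.4%. These were *cul-1*, *cul-4*, *cul-5*, *rbx-2* and *csn-1*. The cullin gene *cul-1* had 68.2 and 112 CPM in citrate and 167, 162 and 175 in tamoxifen, *cul-4* had 25.8 and 35.7 against 71.2, 46.0 and 75.7, and *cul-5* had 54.5 and 90.8 against 134, 152 and 174. The RING partner gene *rbx-2* had 53.9 and 55.0 CPM in citrate and 89.7, 92.3 and 95.4 in tamoxifen, and the signalosome gene *csn-1* had 5.56 and 5.39 against 11.4, 11.7 and 12.3. None of the 5, which were picked by their calls, overlapped between groups. Of all tested genes 39.4% had every tamoxifen library above both controls. The log2 fold changes of the 5 were 0.93, 1.02, 1.11, 0.75 and 0.98.

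**Figure D5:**
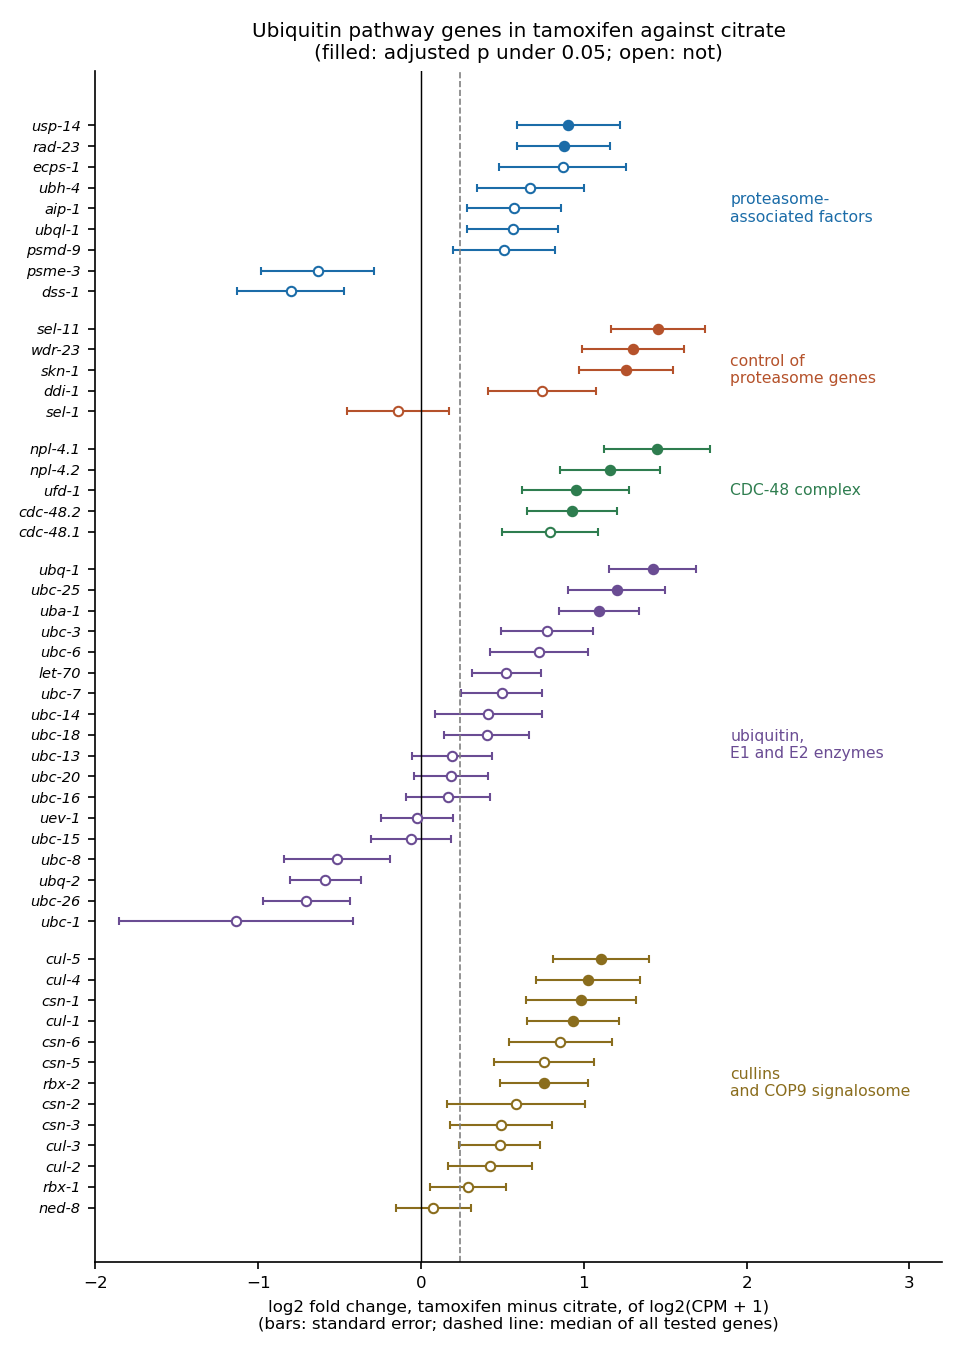
Log2 fold change of the 50 tested genes of the ubiquitin pathway lists (x axis, tamoxifen minus citrate, of log2(CPM + 1), with standard error), grouped by list, with filled points for the 17 at an adjusted p under 0.05. All filled points lie above 0 and run from 0.75 for *rbx-2* to 1.46 for *sel-11*, and *ubq-2* and *dss-1* lie at -0.59 and -0.80.

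Markers of oocytes and of sperm moved with the groups as well. The 7 oocyte markers summed to 1032 and 2271 CPM in citrate and to 4795, 4845 and 5571 in tamoxifen, and all 7 were called higher at an adjusted p under 0.05 in limma. Their median log2 fold change was 1.72, and citrate replicate 2 was above citrate replicate 1 by a median of 1.17. The 4 germline markers summed to 559 and 1011 CPM in citrate and to 1392, 1378 and 1403 in tamoxifen, and all 4 were called higher. The 6 sperm markers summed to 237 and 276 CPM in citrate and to 132, 89.3 and 89.2 in tamoxifen, with 5 of 5 tested called lower. No oocyte, germline or sperm marker was at 0 in any library. Of the intestine markers 1 of 6 was lower, the sums being 3358 and 2567 CPM in citrate and 1510, 1447 and 1194 in tamoxifen. The drop in that sum was mostly that of *act-5*, at 2417 and 1917 CPM in citrate and 829, 863 and 477 in tamoxifen. *ges-1* was higher in every tamoxifen library, and *elt-2*, *ifb-2*, *vha-6* and *pho-1* overlapped between groups. The median log2 fold change of the intestine markers was -0.12. Of the neuron and pharynx markers 0 were called higher or lower. Body wall muscle sums were 5055 and 4219 CPM in citrate and 3100, 3064 and 2488 in tamoxifen, with 2 of 5 lower. Of all tested genes 20.4% were called higher and 9.67% lower. The 19S sum and the oocyte sum were both lowest in citrate replicate 1 and next lowest in citrate replicate 2. Among the tamoxifen libraries their order differed, with the 19S sum highest in replicate 2 and the oocyte sum highest in replicate 3. The part of these cell types, and of stage, in the changes of the proteasome genes was not tested.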

How the data were processed

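The 5 libraries (Cel-seq2), 2 of citrate and 3 of tamoxifen animals, were grouped by their labels. The authors deposited 1 table of values they call TPM, which sum to 1000000 per library without use of gene length and were treated as CPM. The submitters' processing notes name Trimmomatic 0.32 and STAR, and the paper a DolphinNext pipeline. The genome build, use of strand and collapsing of molecular identifiers are not given in the sources used here. All values (100%) were whole multiples of 1 tag within 0.01 tags, which gave tag totals. Of 25393 gene IDs, 25064 matched a symbol.

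Log2(CPM + 1) was fitted by limma 3.58.1 in R 4.3.3 (empirical Bayes with trend, no covariates) over genes that reached 5 CPM in 2 or more libraries. Alternatives were edgeR 4.0.16 (quasi-likelihood, 968 genes higher and 1265 lower at an adjusted p under 0.05) and DESeq2 1.42.0 (Wald, 1082 higher and 1367 lower) on the recovered tags, other scalings, filters, pseudocounts, thinning, a replicate block and leaving out each library. The procedure was tested on simulated data. P-values rest on the spread within groups, pooled over the citrate and tamoxifen libraries. In limma that spread is also drawn toward a trend over all tested genes. They do not measure the spread of the 2 controls alone. Values in each library are given for subunit genes past either threshold, extremes of each group, catalytic subunits, the *rpn-6* paralogs and, from the pathway lists, genes past a threshold and *skn-1*, *ddi-1*, *png-1* and *ubq-2*, with some others chosen after their values were seen. Members and lists were chosen with earlier results of these data known.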

Additional observations from a re-analysis of the deposited data

How the results depend on the processing

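Of the values of single genes over 17 alternatives, 551 kept their direction and side of the threshold, 62 lost the call, 5 gained it and 27 reversed. No alternative called a subunit gene lower, and the gap between the 19S and 20S medians, 0.39 as reported, ran from 0.24 to 0.65 over the alternatives, a shift smaller than its spread between libraries of 0.30. DESeq2 called 4 subunit genes higher, all 19S, with 0 by the strict rule, and 9 pathway genes higher and 3 lower. Its medians were 0.21 over all subunit genes and 0.064 over 20S genes, with *pas-1* at -0.20, *pas-5* at -0.075, *pbs-2* at -0.14 and *pbs-4* at -0.16. EdgeR called 3 subunit genes higher, all 19S, with 0 by the strict rule, and 9 pathway genes higher and 3 lower. Its medians were 0.24 and 0.093, with *pas-1* at -0.17, *pas-5* at -0.048, *pbs-2* at -0.11 and *pbs-4* at -0.13. Median-of-ratios scaling gave 5 subunit genes, all 19S, 0 strict, and 9 pathway genes higher and 3 lower. Its medians were 0.27 and 0.15, with *pas-1* at -0.094, *pas-5* at -0.0039, *pbs-2* at -0.069 and *pbs-4* at -0.069. TMM scaling gave 6 subunit genes, all 19S, 0 strict, and 10 pathway genes higher and 1 lower. Quantile normalization gave 0 strict calls, 9 pathway genes higher and 2 lower, a 20S median of 0.12, *pas-1* at -0.044 and *pbs-4* at -0.022. Without the filter 20671 genes were tested, and 0 subunit genes, 0 of them 19S, 0 strict and 0 pathway genes passed in limma, with 12 subunit genes higher at an unadjusted p under 0.05. A filter of 20 CPM gave 1 pathway gene lower, a pseudocount of 0.1 gave 0 strict calls, and without the trend 4 subunit genes passed, all 19S, 0 strict. Thinning to the smallest library put *rpn-6.2* at 0.040. Over all 8325 tested genes DESeq2 called 1082 higher and 1367 lower, and edgeR 968 and 1265. The same counts were 1052 and 1093 after median-of-ratios scaling, 1234 and 840 after TMM scaling, and 1139 and 1133 after quantile normalization. They were 1555 and 753 without the trend, and 1320 and 510 of 5059 genes with the filter of 20 CPM. The cause of the differences between fits was not tested.

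Leaving out each library gave 0 to 11 subunit genes higher, 0 to 11 in the 19S particle and 0 to 1 in the core, with 0 to 8 strict calls, 0 to 18 pathway genes higher and 0 to 1 lower. The fewest higher calls came without citrate replicate 1, the most without citrate replicate 2, and the core call, *pbs-3*, without tamoxifen replicate 2. Of all 8325 tested genes 1050, 1353 and 1043 were called higher without tamoxifen replicate 1, 2 and 3. With each library of either group left out in turn, the medians ran from 0.38 to 0.65 over all subunit genes. They ran from 0.53 to 1.05 over 19S genes and 0.29 to 0.40 over 20S genes. With the libraries whose omission reversed the sign in parentheses, log2 fold changes ran from -0.013 to 1.05 for *rpt-1* (citrate replicate 1), -0.10 to 0.65 for *rpt-2* (citrate replicate 1), -0.073 to 0.85 for *rpn-2* (citrate replicate 1), -0.19 to 0.10 for *rpn-6.2* (citrate replicate 1, tamoxifen replicate 1), -0.25 to 0.43 for *pas-1* (citrate replicate 1), -0.063 to 0.30 for *pbs-2* (citrate replicate 2, tamoxifen replicate 1), -0.049 to 0.28 for *pbs-4* (citrate replicate 2) and -0.19 to 0.083 for *pbs-5* (citrate replicate 2, tamoxifen replicate 3).

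The labels do not say whether same-numbered libraries share more than a number. Correlations of their deviations were 0.12 and 0.32 over 2 pairs. A replicate block gave 10 subunit genes higher, 4 strict calls, 18 pathway genes higher and 3 lower, and *pbs-5* at 0.042. Of all 8325 tested genes it called 1977 higher and 1060 lower, with 1044 higher by the strict rule. Replicate 3 exists only in tamoxifen, so that library carries no weight in the blocked contrast, which sets 2 libraries against 2. An exact permutation test of 3 against 2 libraries cannot give a p below 0.1.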
